A study of Gallus gallus with 15 samples.

Results

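A set of 10 liver genes that make, load or break down lipoproteins were followed across 5 chicken breeds: the lipases LIPC and LPL, the lipase maturation factor LMF2, the apolipoproteins APOA1, APOA4, APOB and APOC3, the transfer protein MTTP, and LCAT and PLTP, which act on lipoproteins in plasma. They were chosen by name, and each was read from an array feature whose annotation gave exactly 1 gene symbol, using the feature with the highest mean level. Of the 10 genes, 7 were measured in this way by 11 features, of 18308 features in all. APOC3, LCAT and PLTP are named by 0 features and were not analysed here. The birds were males aged 13 weeks, hatched from eggs of local farms and reared together on free feed, with 3 birds and 3 arrays in each breed. White Leghorn (WL) served as the control breed. The Korean native breeds were Hyunin Black (Bl) and Yeonsan Ogye (Og), together with Hwangbong (Hw) and with Hoengseong Yakdak (Ya). No treatment was given. Birds are named by breed code and number, as in Hw 2. The labels call the 3 arrays of a breed biological replicates. Whether birds of a breed were related is not stated.

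The liver packs triglyceride and cholesterol around apolipoprotein B, with the help of MTTP, and secretes the particle as very low density lipoprotein. Lipases on the vessel wall then break down the triglyceride: LPL mainly in muscle and fat, and LIPC, the hepatic lipase, in the liver, where it acts on remnants and on high density lipoprotein. APOA1 is the main protein of high density lipoprotein and activates LCAT, the enzyme that esterifies its cholesterol, while PLTP moves phospholipid between particles. In birds the liver is the main site of fatty acid synthesis, so its lipoproteins carry most of the fat that reaches other tissues.

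All levels are log2 values made by the authors with RMA (robust multi-array averaging, which brings the arrays to a common distribution), so a difference of 1 is a factor of 2. Array medians lay between 6.12 and 6.20. Probes differ in brightness, so the level of 1 gene is not compared with that of another. Hepatocyte markers were strong in every bird, with a mean level of 17 measured markers between 11.82 and 11.98. ALB lay between 13.75 and 13.86, whereas CPS1 and RBP4 had low means of 5.001 and 4.63. Since whole liver was measured, fewer cells of a type and less RNA per cell cannot be told apart.

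Across the 5 breeds, LIPC and APOA4 differed and the other 5 measured genes did not pass the test. This is 2 of 7 genes at an adjusted p under 0.05 in limma's F test, where 1.6% of all features passed. The genes were chosen with earlier results of these data known, so this count is not a test of the set. LIPC was highest in White Leghorn and lowest in Hwangbong, a factor of 6.18 between the means. APOA4 was highest in Hyunin Black and Yeonsan Ogye and lowest in Hwangbong and White Leghorn, over a factor of 1.89. APOB, in contrast, spanned a factor of 1.04.

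**Figure D1:**
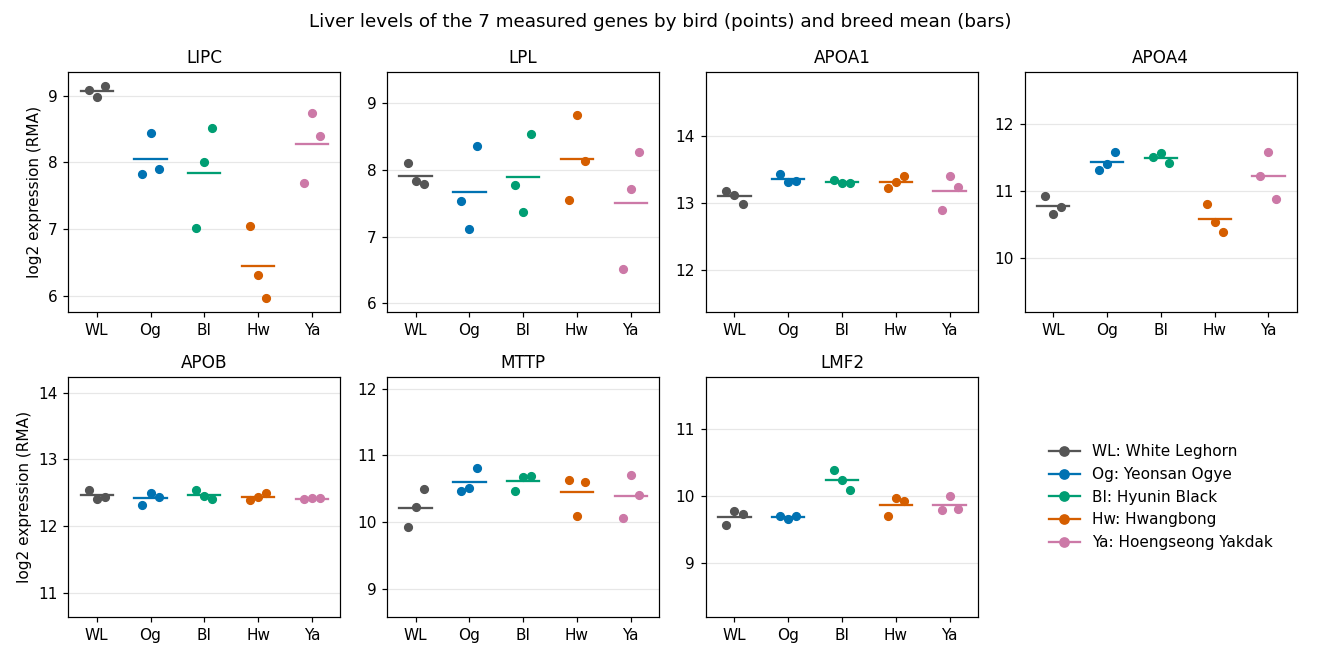
Log2 expression (y axis) of the 7 measured genes in each bird, by breed (x axis). Points are birds, bars are breed means, and every panel spans the same range of log2 units. LIPC falls from 9.07 in White Leghorn to 6.44 in Hwangbong, APOB stays between 12.32 and 12.55, and LPL spreads widely within the native breeds.

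LIPC hydrolyses triglyceride and phospholipid of lipoproteins in the liver sinusoids. In the White Leghorn birds it stood at 9.08, 8.98 and 9.15. The Hwangbong birds were at 7.04, 6.31 and 5.96. These groups were far apart, with no Hwangbong bird above 7.04 and no White Leghorn bird below 8.98. Levels were 7.83, 8.44 and 7.90 in Yeonsan Ogye. Hyunin Black had 7.01, 8.003 and 8.52. Hoengseong Yakdak had 7.68, 8.74 and 8.40. All 12 native birds therefore lay below all 3 White Leghorn birds, with 8.74 as the highest native and 8.98 as the lowest White Leghorn value. The White Leghorn birds also differed least among themselves, with an SD of 0.08 (n = 3), against 0.33 in Yeonsan Ogye, 0.55 in Hwangbong, 0.54 in Hoengseong Yakdak and 0.76 in Hyunin Black.

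Tested against White Leghorn, LIPC was lower in Hwangbong by a factor of 6.18, a log2 difference of -2.63 ± 0.36 (SE; 95% interval -3.40 to -1.85; adjusted p = 0.00459). It was the only measured gene of the 7 called there, beside 0.579% of all features. The call was present in all 24 alternative settings, with adjusted p up to 0.0314. The means of the other native breeds were also below White Leghorn, but their differences did not pass over all features. They were -1.23 ± 0.36 in Hyunin Black (adjusted p = 0.206), -1.01 ± 0.36 in Yeonsan Ogye (adjusted p = 0.399) and -0.80 ± 0.36 in Hoengseong Yakdak (adjusted p = 0.374). In these 3 comparisons 0 of the 7 genes were called, where 0.164%, 0.191% and 0.552% of all features were. At an unadjusted p under 0.05 in limma there were 3, 3 and 2. The share of all features at that unadjusted level was not counted, here or for the lists below, so such counts have no background beside them. The mean of the 4 native breeds lay -1.42 ± 0.29 from White Leghorn and passed narrowly (adjusted p = 0.0497; 0.432% of all features called). That call was lost in 15 of 23 alternative settings, among them the removal of any bird except Bl 1, Bl 3 or Hw 1, with adjusted p up to 0.174. All these comparisons share the White Leghorn birds.

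Among the native breeds, the order of the LIPC means was Hoengseong Yakdak (8.27), Yeonsan Ogye (8.06), Hyunin Black (7.84) and Hwangbong (6.44). The first 3 did not differ beyond their spread, with differences between -0.21 and 0.43 and adjusted p from 0.724 to 0.936. Hoengseong Yakdak exceeded Hwangbong by 1.83 ± 0.36 (adjusted p = 0.0231), the only call among the 7 genes in a comparison where 1.46% of all features were called. This call was lost without Hw 2, Hw 3, Ya 2 or Ya 3 and in a fit of the 6 arrays alone (adjusted p up to 0.111). In the same comparison bile duct markers were above 0 in 6 of 6 measured, of 11 listed, with a median of 0.20 and 1 called. SPP1, a secreted phosphoprotein on that list, had means of 7.79 in Hoengseong Yakdak and 6.77 in Hwangbong. Macrophage markers were below 0 in 7 of 8, with a median of -0.28, but limma called 0 of them and 0 had an unadjusted p under 0.05. The part of these markers in the result was not tested. Hwangbong lay -1.62 ± 0.36 from Yeonsan Ogye (adjusted p = 0.0862) and -1.40 ± 0.36 from Hyunin Black (adjusted p = 0.155), where Bl 1, at 7.01, fell just under Hw 1. The F test for LIPC (F = 14.0, adjusted p = 0.0156) did not pass without Hw 2 or Hw 3 (adjusted p = 0.0677 and 0.0645).

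The lowest LIPC level, 5.96 in Hw 3, lay under the median of its array. The other Hwangbong birds, at 7.04 and 6.31, lay above the highest array median, 6.20. Array background was not measured here, so whether it limited the size of the fall in Hwangbong was not tested. Macrophage markers moved with the Hwangbong difference. The mean level of the 8 measured markers of 19 listed lay between 10.11 and 10.21 in Hwangbong and between 9.72 and 9.90 in White Leghorn. In this comparison 7 of the 8 were above 0, with a median of 0.37; limma called 0, and 5 had an unadjusted p under 0.05. The lowest of them, SPI1, had a mean of 8.77 over all birds. Bl 1, the Hyunin Black bird with the lowest LIPC, had the highest macrophage mean of all birds, 10.42. Within that breed Bl 2 had 9.77, with LIPC at 8.003, and Bl 3 had 10.03, with LIPC at 8.52. Against White Leghorn the macrophage markers were above 0 in 7 of 8 in Hyunin Black (median 0.28) and 6 of 8 in Hoengseong Yakdak (median 0.10). In Yeonsan Ogye they were above 0 in 2 of 8 (median -0.03). The hepatocyte list was between 11.82 and 11.95 in Hwangbong and between 11.92 and 11.96 in White Leghorn, with 5 of 17 markers above 0 and a median difference of -0.05; limma called 0, and 3 had an unadjusted p under 0.05. Hwangbong also had red cell markers above White Leghorn in 6 of 7 (median 0.16) and endothelial markers in 6 of 9 (median 0.12). Stellate and fibroblast markers were above it in 5 of 9 (median 0.21). Limma called 0 in each of these lists, with 2, 2 and 1 at an unadjusted p under 0.05. Red cell markers moved with the difference of the native mean: 7 of 7 measured, of 18 listed, were above 0, with a median of 0.39. Limma called 0 of them, and 4 had an unadjusted p under 0.05. Their mean level lay between 6.41 and 6.57 in White Leghorn and between 6.57 and 7.25 in the native birds. The part of these lists in the LIPC result was not tested.

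**Figure D2:**
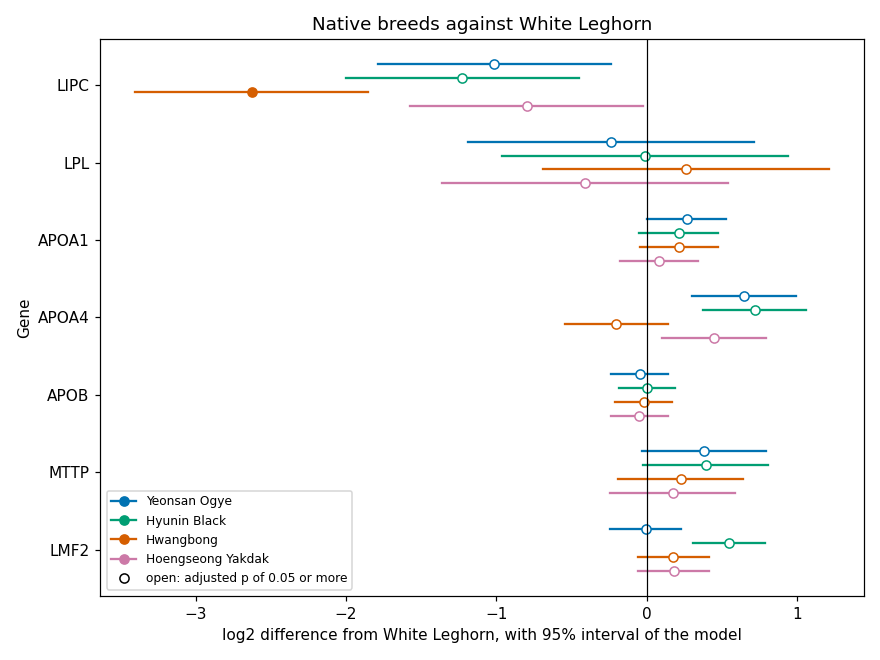
Log2 difference of each native breed from White Leghorn (x axis) for the 7 measured genes (y axis). Points are estimates, lines are 95% intervals of the model, and filled points passed at an adjusted p under 0.05. LIPC in Hwangbong, at -2.63, is the only filled point.

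LPL, the lipase that muscle and fat use to take up triglyceride, behaved differently from LIPC. In White Leghorn it was at 8.10, 7.83 and 7.79. Hwangbong birds were at 7.55, 8.82 and 8.13. Hoengseong Yakdak birds ranged most widely, at 6.52, 7.72 and 8.26. Yeonsan Ogye had 7.53, 7.11 and 8.36, and Hyunin Black had 7.77, 7.38 and 8.54. Every pair of breeds overlapped. The SD within breeds, pooled over the 15 birds, was 0.63, larger than in 98.6% of all features, whose median was 0.19. Among breed means LPL went from 7.50 in Hoengseong Yakdak to 8.17 in Hwangbong, and none of its differences passed (F = 0.66, adjusted p = 0.827). The largest, between these breeds, was -0.67 ± 0.44, with a 95% interval of -1.62 to 0.28. Against White Leghorn the Hwangbong difference was 0.26, with an interval of -0.69 to 1.21. The 6 measured markers of the adipocyte list had a mean level between 8.53 and 8.92 over the birds. That mean was carried by CD36 (10.56), GPAM (10.50) and CIDEA (10.33). ADIPOQ, the lowest, had a mean of 5.46, under the lowest array median, 6.12. Whether the samples held fat tissue was not tested.

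LMF2 belongs with LMF1 to the family of endoplasmic reticulum proteins of lipase maturation. Its levels in Hyunin Black were 10.39, 10.23 and 10.10. The 12 birds of the other breeds lay between 9.57 and 10.003. Hyunin Black thus stood above every other bird. Yeonsan Ogye, at 9.70, 9.65 and 9.70, and White Leghorn, at 9.57, 9.78 and 9.73, had the lowest means, 9.68 and 9.69. The difference of Hyunin Black from White Leghorn was 0.55 ± 0.11 (adjusted p = 0.0705), and from Yeonsan Ogye it was 0.56 ± 0.11 (adjusted p = 0.139). Between these breeds limma called 0 of the 7 genes and 0.0492% of all features, and 1 gene had an unadjusted p under 0.05. Neither LMF2 difference passed over all features, nor did the F test (F = 8.28, adjusted p = 0.0613). The F test passed in 2 of 24 alternative settings, with trend and robust moderation (adjusted p = 0.0449) and with only the 12205 features of highest mean (adjusted p = 0.0396). In the latter the difference from White Leghorn also passed (adjusted p = 0.0499). A second LMF2 feature gave 9.08, 9.20 and 8.92 in Hyunin Black and a difference from White Leghorn of 0.45 ± 0.12 (adjusted p = 0.177). Its highest birds were again Bl 2 and Bl 1, whereas Bl 3 was lower than Ya 2 and Og 1.

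APOA4, an apolipoprotein of high density and triglyceride-rich particles, split the breeds in another way. Its levels were 11.31, 11.40 and 11.58 in Yeonsan Ogye. They were 11.51, 11.56 and 11.43 in Hyunin Black. White Leghorn had 10.93, 10.66 and 10.76, and Hwangbong had 10.81, 10.54 and 10.39. The birds of the first pair of breeds, at 11.31 to 11.58, were all above those of the second pair, at 10.39 to 10.93. Hoengseong Yakdak lay across the gap, with 11.22, 11.58 and 10.89.

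Hwangbong was lower than Hyunin Black by a factor of 1.89, a difference of -0.92 ± 0.16 (adjusted p = 0.0232), and lower than Yeonsan Ogye by a factor of 1.802, -0.85 ± 0.16 (adjusted p = 0.0433). APOA4 was the only call among the 7 genes in each comparison, where 0.371% and 0.317% of all features were called. Macrophage markers in Hwangbong were above Yeonsan Ogye in 8 of 8, with a median of 0.45 and 5 at an unadjusted p under 0.05, and above Hyunin Black in 5 of 8, with a median of 0.08. Limma called 0 of them in either comparison, and their part in the APOA4 result was not tested. Of the bile duct markers 1 of 6 was called lower in Hwangbong than in Hyunin Black, while 5 of the 6 were above 0, with a median of 0.05. Stellate and fibroblast markers in Hwangbong were above Hyunin Black in 9 of 9 (median 0.08) but below Yeonsan Ogye in 7 of 9 (median -0.18). Against Hyunin Black, red cell markers were below 0 in 6 of 7. Hepatocyte markers were below 0 in 12 of 17, with 4 at an unadjusted p under 0.05 in limma. None of the markers of these last lists was called, and their part was not tested. The first APOA4 call, against Hyunin Black, was lost without Hw 2, Hw 3 or any Hyunin Black bird and in a fit of the 6 arrays alone (adjusted p up to 0.103 with 1 bird left out). The second held in 4 of 15 fits with 1 bird left out, those without Bl 1, Hw 1, Ya 2 or Ya 3, with adjusted p up to 0.161 in the others. The differences of the high breeds from White Leghorn did not pass over all features, though their birds did not overlap. Hyunin Black was at 0.72 ± 0.16 (95% interval 0.37 to 1.06, adjusted p = 0.103). Yeonsan Ogye was at 0.65 ± 0.16 (95% interval 0.30 to 0.99, adjusted p = 0.165). Hoengseong Yakdak was at 0.45 ± 0.16 from White Leghorn (adjusted p = 0.248) and 0.65 ± 0.16 from Hwangbong (adjusted p = 0.0671). Hwangbong and White Leghorn, neighbours at the low end, were -0.20 ± 0.16 apart (adjusted p = 0.658). The F test (F = 12.7, adjusted p = 0.0221) was lost without Hw 2 or Hw 3 (adjusted p = 0.0677 and 0.0628). Between Hoengseong Yakdak and Yeonsan Ogye, and between Hoengseong Yakdak and Hyunin Black, 0 of the 7 genes were called, beside 0.317% and 0.295% of all features; at an unadjusted p under 0.05 in limma there were 0 and 1.

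A second feature annotated as APOA4 kept the Hwangbong mean lowest but not the rest of the order. It read 8.24, 7.98 and 7.99 in Hwangbong. White Leghorn had 8.85, 8.34 and 8.33. Yeonsan Ogye had 8.99, 8.50 and 8.54, and Hyunin Black had 8.82, 8.54 and 8.30. Bird 1 was the highest in each of these last breeds and in White Leghorn. Hwangbong minus Hyunin Black was -0.48 ± 0.19 (adjusted p = 0.44) and Hwangbong minus Yeonsan Ogye -0.60 ± 0.19 (adjusted p = 0.215). Neither passed, nor did the F test on this feature (F = 3.17, adjusted p = 0.306). Yeonsan Ogye stood only 0.17 ± 0.19 above White Leghorn. Across the 15 birds the features of APOA4 correlated at r = 0.63, a description of arrays that share breeds.

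APOA1 was bright and nearly level. It stood at 13.19, 13.13 and 12.99 in White Leghorn. Yeonsan Ogye had 13.44, 13.32 and 13.33, Hyunin Black 13.34, 13.31 and 13.30, and Hwangbong 13.23, 13.32 and 13.40. All 9 of these native birds lay above White Leghorn, while Hoengseong Yakdak, at 12.89, 13.41 and 13.25, had both the lowest bird of all and 1 of the highest. The differences from White Leghorn were 0.26 ± 0.12 in Yeonsan Ogye (adjusted p = 0.538), 0.21 ± 0.12 in Hyunin Black (adjusted p = 0.52), 0.22 ± 0.12 in Hwangbong (adjusted p = 0.489) and 0.08 ± 0.12 in Hoengseong Yakdak (adjusted p = 0.842). None passed, and the highest upper end of their 95% intervals was 0.53. Signals this bright may be compressed on an array, and saturation was not measured here.

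The other APOA1 features showed how much the choice of feature matters for this gene. The second read between 11.11 in Ya 1 and 12.03 in Og 3, and correlated with the first at r = 0.74. On it the differences from White Leghorn were 0.24 in Yeonsan Ogye, 0.04 in Hyunin Black, 0.08 in Hwangbong and -0.17 in Hoengseong Yakdak, and all but Yeonsan Ogye overlapped White Leghorn. The third was high in 3 birds, at 11.02 in WL 1, 11.02 in Og 1 and 10.89 in Bl 1, and at most 10.16 in the other 12. On this feature Hwangbong lay -0.51 ± 0.36 and Hoengseong Yakdak -0.57 ± 0.36 from White Leghorn, opposite in sign to the first feature. None of these differences passed, with adjusted p from 0.568 to 0.974. These are the birds numbered 1 of 3 breeds, and the labels name no batch. The third APOA1 feature and the second APOA4 feature rose and fell together, with r = 0.88 over the 15 birds and 0.92 after breed means were subtracted. For the brightest features of these genes the values were 0.25 and 0.09. APOA4, APOC3 and APOA1 lie close together on a chromosome in the GRCg7b annotation, with APOA5 next to APOA4. Probe positions were not used here, and whether these features read the same transcript was not tested.

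**Figure D3:**
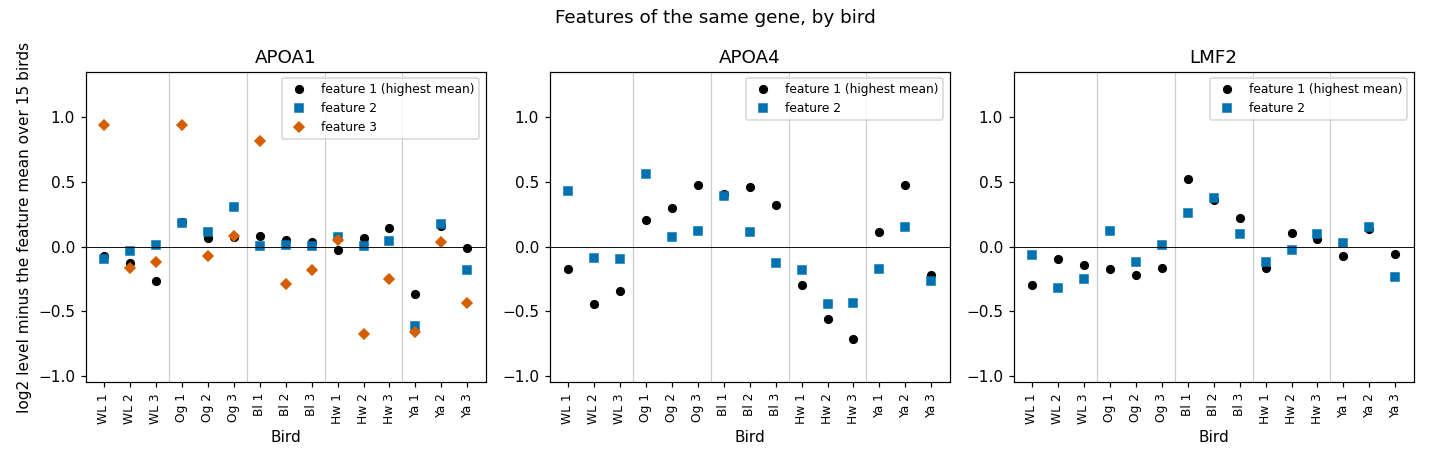
Level of each feature of APOA1, APOA4 and LMF2 in the 15 birds (x axis), as the log2 distance from that feature's mean over all birds (y axis); symbols are features. WL 1, Og 1 and Bl 1 stand out in the third APOA1 feature, at 11.02, 11.02 and 10.89, but not in the first.

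APOB, the structural protein of very low density lipoprotein, was the steadiest gene of the set. Its 15 birds lay between 12.32 (Og 1) and 12.55 (WL 1). The breed means ran from 12.41 in Hoengseong Yakdak to 12.46 in Hyunin Black, and the pooled SD within breeds, 0.06, was larger than in only 0.825% of features. Differences from White Leghorn were between -0.05 and 0.00, and their 95% intervals reached from -0.24 to 0.19 (F = 0.15, adjusted p = 0.985). As with APOA1, a bright feature may understate differences.

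MTTP loads lipid onto APOB in the endoplasmic reticulum. White Leghorn had the lowest mean, from birds at 9.93, 10.23 and 10.50. Yeonsan Ogye had 10.46, 10.52 and 10.81, and Hyunin Black had 10.46, 10.68 and 10.69. Hwangbong was at 10.64, 10.09 and 10.61, and Hoengseong Yakdak at 10.06, 10.70 and 10.41. The breeds overlapped. All 4 native means were above White Leghorn, by 0.38 ± 0.19 in Yeonsan Ogye, 0.39 ± 0.19 in Hyunin Black, 0.23 ± 0.19 in Hwangbong and 0.17 ± 0.19 in Hoengseong Yakdak, with adjusted p between 0.448 and 0.782. Their 95% intervals ran from -0.24 to 0.81, so these birds do not bound the differences more closely than that.

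As a set, the 7 genes had a median difference from White Leghorn of -0.01 in Yeonsan Ogye, 0.21 in Hyunin Black, 0.18 in Hwangbong and 0.08 in Hoengseong Yakdak. The same median over all features was -0.01, 0.00, -0.01 and 0.00. Over the birds LIPC had r = -0.09 with APOB and r = -0.15 with LPL. APOB varied little, with a pooled SD within breeds of 0.06, so its correlations say little. LIPC and APOA4, both lowest in Hwangbong, had r = 0.30. After subtraction of breed means, LIPC correlated at 0.45 with MTTP and at -0.49 with LMF2. These correlations describe 15 arrays.

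The wider pathway was read from 6 lists with 111 genes, of which 77 were measured. Without the 10 genes above, 3 of 70 passed the F test: APOV1, LRPAP1 and KLF15. Over all features 1.6% passed that test, a share to set beside the F test counts of each list below. The lists too were chosen with earlier results of these data known, so the counts do not test them. Among partners of the lipases, 15 of 18 listed genes were measured and LIPC alone passed. LIPI, a phospholipase of the lipase family, had the largest F outside the set, 5.77 (adjusted p = 0.129), and was highest in Hwangbong at 7.06 ± 0.20 (SD, n = 3). ANGPTL4, which inhibits LPL, had means of 8.92 ± 1.54 in White Leghorn and 11.41 ± 0.21 in Yeonsan Ogye (SD, n = 3), its largest difference, 2.498, which did not pass (adjusted p = 0.609). The means of Hyunin Black, Hwangbong and Hoengseong Yakdak were 10.36, 9.94 and 10.09, with SDs from 1.99 to 2.41.

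Of 17 listed apolipoproteins 10 were measured, and APOA4 and APOV1 passed. APOV1 is a protein of yolk-directed very low density lipoprotein in laying hens, made under estrogen. In White Leghorn it stood at 4.15, 4.002 and 4.57, and in Hwangbong at 4.37, 4.26 and 4.23. Yeonsan Ogye had 6.28, 7.75 and 6.90, Hyunin Black 7.58, 8.29 and 5.94, and Hoengseong Yakdak 6.96, 5.98 and 5.74. The low breeds and the high breeds did not overlap. Hwangbong was lower than Hyunin Black by -2.98 (adjusted p = 0.02) and than Yeonsan Ogye by -2.69 (adjusted p = 0.0421), in the comparisons in which APOA4 was called. The first call was lost in 6 of 24 alternative settings, without Bl 1, Bl 2 or any Hwangbong bird and with the 6 arrays alone (adjusted p up to 0.133). The second was lost in 11 of 24, among them without any Hwangbong bird and without WL 1, WL 2, Og 2, Og 3, Ya 2 or Ya 3 (adjusted p up to 0.148). Against White Leghorn, APOV1 was higher by 3.03 in Hyunin Black (adjusted p = 0.027), by 2.74 in Yeonsan Ogye (adjusted p = 0.0429) and by 1.95 in the native mean (adjusted p = 0.0497). Hoengseong Yakdak, at 1.98 from White Leghorn (adjusted p = 0.0953) and 1.94 from Hwangbong (adjusted p = 0.0775), did not pass. Removing any White Leghorn bird ended each of the 3 calls. The Hyunin Black call was also lost without Bl 1 or Bl 2, and the Yeonsan Ogye call without Og 2, Og 3, Bl 1, Ya 2, Ya 3 or any Hwangbong bird. The call of the native mean was lost without any bird except Og 1, Bl 2 or Bl 3. Over all alternatives of these calls adjusted p went up to 0.217. Levels near 4 are not shown to be above background, so these differences may be lower bounds. Red cell markers were above White Leghorn in 7 of 7 in Hyunin Black (median 0.52), 6 of 7 in Yeonsan Ogye (median 0.38) and 7 of 7 in the native mean (median 0.39). Limma called 0 of them, and their part in the APOV1 result was not tested. APOA5, an activator of LPL in mammals, was not called (F = 1.22, adjusted p = 0.66).

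None of the 14 measured genes of assembly and export passed limma's F test, and 0 had an unadjusted p under 0.05, with the largest F in PRAP1 (F = 2.98, adjusted p = 0.328). None of the 8 measured genes of high density lipoprotein passed either, and 3 had an unadjusted p under 0.05. ABCG1, a cholesterol exporter, came nearest (F = 8.01, adjusted p = 0.0653). Its means were 4.88 ± 0.11 in White Leghorn and 5.67 ± 0.28 in Hwangbong, and the difference was 0.79 (adjusted p = 0.0739). Hyunin Black was close to Hwangbong, at 5.61 ± 0.16. All 5 breed means of ABCG1 lay under the lowest array median, 6.12, and array background was not measured here. In Hwangbong 7 of these 8 genes were above White Leghorn, with a median of 0.29 against -0.01 over all features. Limma called 0 of them in that comparison, and 3 had an unadjusted p under 0.05. The macrophage markers, with 7 of 8 above 0 and a median of 0.37, moved the same way, and their part was not tested. This pattern of signs and medians was not particular to Hwangbong, and no gene of the list was called. In Hyunin Black 6 of the 8 genes of high density lipoprotein were above White Leghorn, with a median of 0.27. The list includes ATP5B, a subunit of ATP synthase, which had the largest difference there, 0.76 (adjusted p = 0.113). In Hwangbong ATP5B differed from White Leghorn by 0.08 (adjusted p = 0.908). Limma called 0 of the 8 there, and 3 had an unadjusted p under 0.05. Yeonsan Ogye had 4 of 8 above White Leghorn (median 0.06) and Hoengseong Yakdak 5 of 8 (median 0.08).

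Receptors and uptake proteins were measured for 15 of 18 listed genes, and LRPAP1, a chaperone of receptors of the low density lipoprotein family, passed the F test (F = 11.8, adjusted p = 0.0256; up to 0.0858 and lost without Bl 1, Bl 2, Ya 2 or any Hwangbong bird). Its Hwangbong birds were at 9.09, 9.10 and 9.10, above all other birds, whose highest was 8.91. Hyunin Black was lowest, at 8.30, 8.09 and 8.39, and the difference between these breeds was 0.84 (adjusted p = 0.0075). The difference was called in 23 of 24 alternative settings, the exception being a fit of the 6 arrays alone (adjusted p = 0.0619). From White Leghorn the Hwangbong mean differed by 0.49 (adjusted p = 0.0978). VLDLR, the receptor that takes yolk lipoprotein into the chicken oocyte, differed from White Leghorn by -0.02 in Hwangbong (adjusted p = 0.981). Its breed means, from 5.04 to 5.42, all lay under the lowest array median, 6.12, and array background was not measured here.

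Of 15 measured transcription factors of liver lipoprotein genes, KLF15, a glucocorticoid-responsive regulator of fasting metabolism, passed (F = 9.90, adjusted p = 0.0423). The F call was lost in 12 of 23 alternative settings, among them without any White Leghorn bird and without Og 2, Og 3, Bl 1, Bl 3, Hw 2, Hw 3, Ya 2 or Ya 3 (adjusted p up to 0.123). White Leghorn stood at 9.91, 10.12 and 9.76. Every native bird was lower, between 8.55 and 9.54. The native mean was -0.75 from White Leghorn (adjusted p = 0.0338) and Yeonsan Ogye -1.09 (adjusted p = 0.0234), while Hwangbong, at -0.72, did not pass (adjusted p = 0.0862). Removing any White Leghorn bird or Og 3 ended both calls, and over all alternatives adjusted p went up to 0.172. The first was also lost without Bl 2, Bl 3, Hw 3, Ya 2 or Ya 3, and the second without Og 2 or with the 6 arrays alone. Red cell markers were above White Leghorn in 7 of 7 in the native mean and in 6 of 7 in Yeonsan Ogye. Stellate and fibroblast markers were above it in 5 of 9 and 7 of 9. Limma called 0 of them, and their part in the KLF15 result was not tested. HNF4A, a nuclear receptor that drives many apolipoprotein genes, differed from White Leghorn by 0.20 in Hwangbong (adjusted p = 0.742) and PPARA by -0.36 (adjusted p = 0.358).

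**Figure D4:**
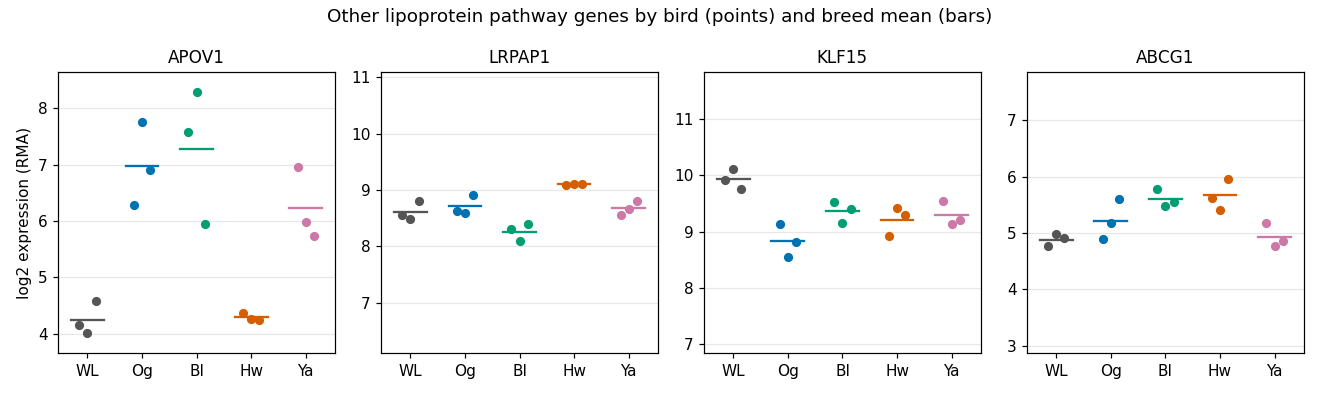
Log2 expression (y axis) of APOV1, LRPAP1, KLF15 and ABCG1 in each bird, by breed (x axis). Points are birds, bars are breed means, and every panel spans the same range. APOV1 lies near 4 in White Leghorn and Hwangbong and between 5.74 and 8.29 in the other breeds, and LRPAP1 is highest in Hwangbong.

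Among all named genes, those whose levels rose and fell most like LIPC over the 15 birds were PIGP (r = 0.86), FRMD3 (r = 0.85), HSCB, LOC424014 and CPAMD8 (r = 0.84 each). PIGP, a subunit of the enzyme that starts glycosylphosphatidylinositol anchors, had means of 6.05 in White Leghorn and 4.98 in Hwangbong. All breed means of PIGP, HSCB and FRMD3 lay under the lowest array median, 6.12, with FRMD3 between 3.72 and 4.53. Array background was not measured here. LIPC ran opposite to MANBA (r = -0.87), MMD (r = -0.86) and ARPC1B (r = -0.85). MANBA is a lysosomal mannosidase and ARPC1B a subunit of the actin-nucleating complex. After breed means were subtracted, these correlations shrank, to between 0.32 and 0.51 for the first 5 genes and between -0.14 and -0.68 for the last 3. For APOA4 the most similar genes were APOV1, MLST8 and ATP5B (r = 0.85 each), IPO13 (r = 0.83) and DPP7 (r = 0.82). The most opposed were MIR1646 (r = -0.88), ARHGEF33 (r = -0.85) and PNAT3 (r = -0.80). ATP5B, the beta subunit of ATP synthase, had means of 11.86 in White Leghorn and 11.94 in Hwangbong, and 12.56 and 12.62 in Yeonsan Ogye and Hyunin Black. After breed means were subtracted, APOV1 and APOA4 correlated at 0.22. The other similar genes then had r between 0.37 (DPP7) and 0.66 (IPO13), and the opposed genes between -0.45 (MIR1646) and -0.62 (PNAT3).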

How the data were processed

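The deposited table holds log2 expression values per feature, which the authors made with RMA. The submitters' processing notes name Affymetrix Expression Console, version 1.3.1, for that step. The labels' protocols describe biotin-labelled cDNA hybridised to 1 array per bird. The summarization level and any probe filter are not given in the sources used here. Names came from the platform annotation. The 15 arrays entered 1 linear model of 5 breed means (lmFit, then eBayes, from limma 3.58.1 under R 4.3.3) over all 18308 features. An F test and 11 two-sided contrasts were run, each with Benjamini-Hochberg adjustment over all features and a threshold of 0.05. The number of birds limits precision: an exact permutation test of 3 against 3 cannot go below 0.1. The fit was tested on simulated data with independent normal noise and, for each feature, the same spread in every breed. That test does not cover a spread that differs between breeds or effects that arrays share.

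The genes, lists and tests were chosen with earlier results of these data known. All measured members were named, along with list genes that passed, the largest F of each list without one (outside the set), and the 5 most and 3 least similar genes to LIPC and APOA4. Other list genes were named after their values were seen. Alternatives were trend and robust moderation, array weights, further quantile normalisation, median centring, a filter on low features, 1 feature per gene, the lowest-mean feature, a 1.5-fold minimum, the 6 arrays compared, a replicate block, and each array left out.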

Additional observations from a re-analysis of the deposited data

How the results depend on the processing

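With 3 birds per breed, many calls rested on single birds. Across all alternatives 2663 differences of the 7 genes, APOV1, LRPAP1 and KLF15 were recomputed. The sign turned in 83 of them and in 0 that were called. The count of 1 gene in Hwangbong against White Leghorn was the same in every alternative run. With trend and robust moderation, median centring or the replicate block, the count for the native mean went from 1 to 0. The F test count rose from 2 to 3, with LMF2 as the added gene, under trend and robust moderation and with the 12205 features above a mean of 5.21. The replicate block also took Hwangbong against Yeonsan Ogye from 1 to 0 and changed no other count. Residuals of arrays with the same replicate number in different breeds correlated at a median of 0.04, with 8 of 30 pairs over 0.1. With different numbers the median was -0.02, with 6 of 60 over 0.1. The labels name nothing that the numbers share, and the numbers were not treated as pairs in the main fit. Whether arrays of the same number were handled together was not tested. Array weights gave 2 genes for Hwangbong against Yeonsan Ogye, against Hyunin Black and against Hoengseong Yakdak. With the 12205 features above a mean of 5.21 alone, Hyunin Black against White Leghorn went from 0 to 1 and Hoengseong Yakdak against Hwangbong to 2. With the lowest-mean feature of each gene, the F test count was 1, and Hwangbong against Yeonsan Ogye and against Hyunin Black had 0. A fit of only the 6 arrays compared gave 0 for Hwangbong against each of the other native breeds. With 1 array left out, counts ranged from 0 to 2 for the F test and Hwangbong against Yeonsan Ogye. They ranged from 0 to 1 for Hwangbong against Hyunin Black, for Hoengseong Yakdak against Hwangbong and for the native mean. The cause of these changes was not tested.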
